A study of Mus musculus with 6 samples.

Results

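The semaphorins, plexins, neuropilins, Slits, Robos, netrins, Unc5 receptors, ephrins and Eph receptors are the classical axon guidance families. They were followed here in the kidneys of Fat4-/- and Fat4+/+ mouse embryos. The families were chosen with earlier results of these data known. Within them the members were taken by gene symbol alone, with no use of their levels. Of 21553 genes with a value in the table, 67 carried a symbol of these families. All 67 had a value in each of the 6 libraries. They comprised 35 genes for ligands (semaphorins, Slits, netrins and ephrins) and 32 for receptors (plexins, neuropilins, Robos, Unc5 and Eph genes).

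Guidance proteins steer cells by attraction and repulsion, and most of them also act outside the nervous system. Class 3 semaphorins are secreted and bind neuropilins, which hold a plexin as the signalling partner, while the other semaphorins are mostly bound to the membrane and meet plexins directly. Slits are secreted ligands of Robo receptors, netrins bind Unc5 and Dcc receptors, and ephrins on one cell engage Eph receptor kinases on its neighbour. In the mouse kidney, Slit2 and Robo2 are known for confining ureteric bud outgrowth to a single site, and class 3 semaphorins have been studied in ureteric branching and vessel patterning.

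All embryos were at E13.5 and came from 1 pregnant female on a C57BL6/6 background backcrossed for 6 generations. The Fat4-/- group held 3 embryos with both copies of Fat4, a giant cadherin gene, mutated in the whole animal, and the Fat4+/+ group held 3 littermates. No agent or further allele is named for either group, nor the part of the gene that is lost. Each library was made from both kidneys of an embryo, with ureteric bud, mesenchyme and stroma together. In such whole-organ RNA, fewer cells of a type and less RNA per cell cannot be told apart. Levels are given as cRPKM, the authors' corrected form of RPKM, which is scaled per length, so that levels of different genes can be set side by side.

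Fat4 itself was at 7.82, 7.20 and 7.49 cRPKM in mutant embryos 1 to 3, against 16.74, 15.69 and 16.83 in wildtype embryos 1 to 3. As for the tissue, 8 of 8 nephron progenitor and 8 of 8 cortical stroma genes were high enough to test. Libraries differed in ways that touch the results below. The summed Y-linked genes were at 69.6, 0.08 and 0.15 cRPKM in mutant embryos 1 to 3 and at 65.27 to 72.97 in the wildtype embryos, so sex was uneven between the genotypes. Wildtype embryo 3 carried the highest signal of nerve genes, with Tubb3 at 4.57 cRPKM against 1.25 or less in the other 5 libraries. Wildtype embryo 1 stood apart in matrix genes of the stroma, with Lum at 15.18 cRPKM against 7.49 or less. The nerve list as a whole summed to between 16.06 and 19.62 cRPKM in mutant and between 15.11 and 22.88 in wildtype libraries. Of its 11 genes 4 were high enough to test, none was called, and the glial gene Sox10 was at 0.24 cRPKM or less in each library.

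The guidance families were expressed across a wide range in the E13.5 kidney, and most members differed little between the genotypes. By wildtype mean, 5 members lay at 40 cRPKM or more, 12 between 20 and 40, 27 between 5 and 20, 12 between 1 and 5, and 11 below 1. Plxnb2, a plexin that binds class 4 semaphorins, was the most abundant at 72.6 ± 4.59 cRPKM in mutant and 71.8 ± 4.65 in wildtype kidneys (SD, n = 3 each). Its wildtype values did not overlap those of the next member. Ephb4 and Efnb1 followed, with means of 50.9 ± 1.17 and 51.2 ± 2.31 cRPKM in mutant kidneys and 49.3 ± 1.90 and 48.8 ± 0.548 in wildtype kidneys (SD, n = 3 each). These 2 overlapped in their wildtype range, so their order is not resolved. Nrp1, Plxnd1 and Ntn1 came next, each overlapping its neighbour in that order.

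**Figure D1:**
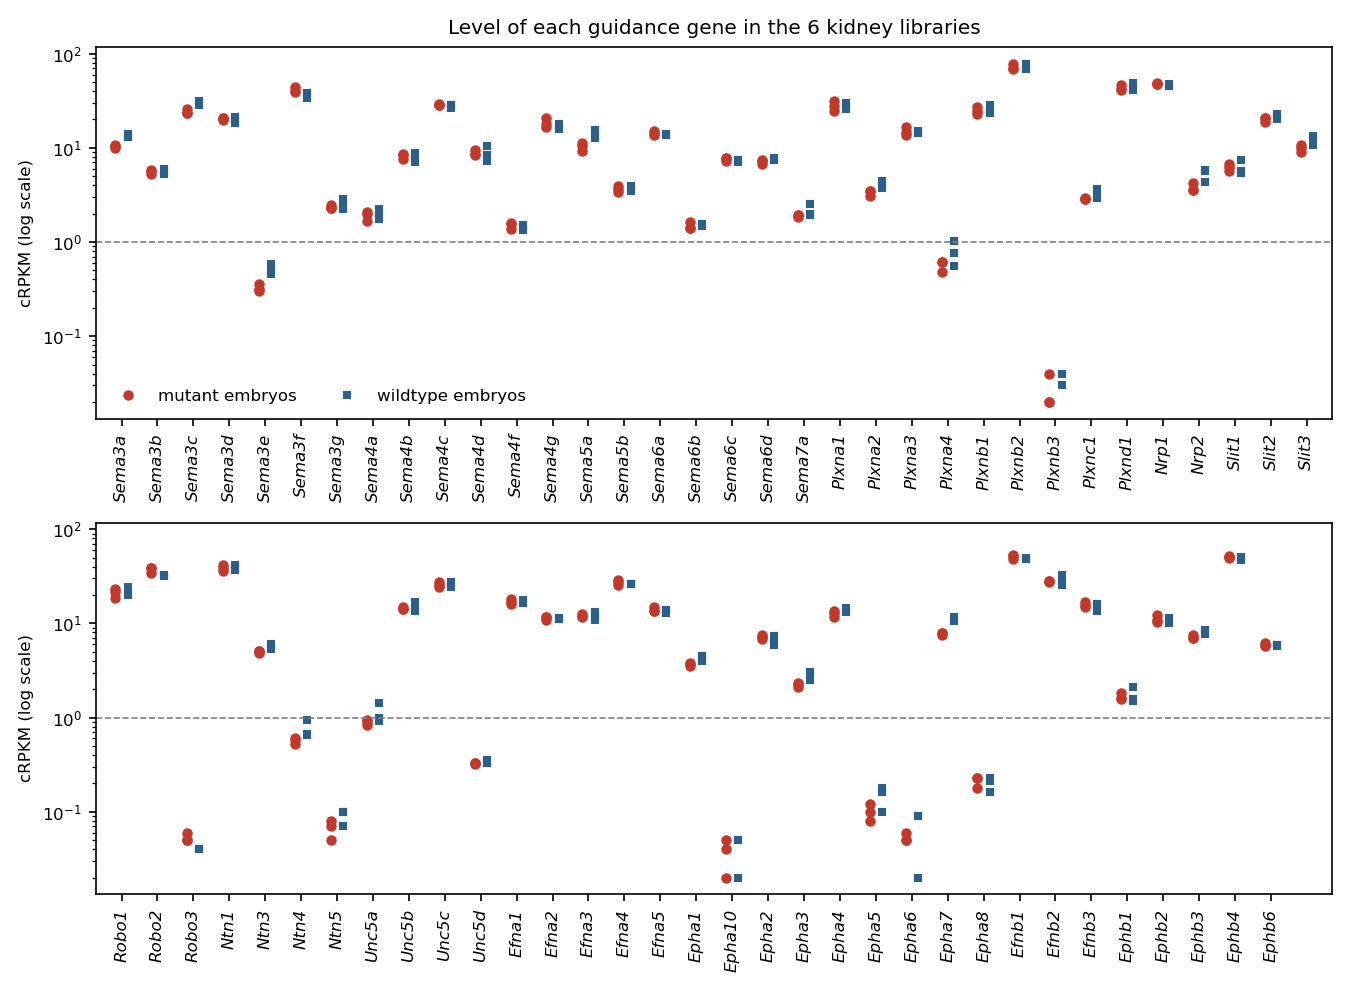
Level of each of the 67 guidance genes in cRPKM on a log axis, with mutant embryos as circles to the left and wildtype embryos as squares to the right, ordered by family. The dashed line marks 1 cRPKM, the mean needed for testing, and members run from Plxnb3 and Robo3 under 0.1 to Plxnb2 near 72 cRPKM.

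The comparison of mutant with wildtype kidneys asks how these families are expressed when Fat4, a cadherin of the kidney stroma, is lost. Of the 55 members that averaged 1 cRPKM or more, 3 fell and none rose in mutant kidneys (limma, adjusted p under 0.05 over all 12315 genes tested). The 3 were Epha7, Sema3a and Sema3c. Among all genes tested 0.877% fell by this rule and 0.552% rose, beside 3 of 55 members (5.45%) that fell. The families were chosen with earlier results of these data known, so these shares are a description only. At an unadjusted p under 0.05, 11 members were lower and 2 higher, against 7.97% and 5.08% of all genes tested. In 11 members each mutant value lay under each wildtype value, which held for 11.0% of all genes tested. In 2 members (3.64%) each mutant value lay above, against 7.23% of all genes. The median log2 fold change over the tested members was -0.01, the same to this precision as over all genes tested. Below 0 lay 28 of 55 members (50.9%), against 56.8% of all genes tested. The count of 3 was 0 without mutant embryo 2, with no filter on low values and with the Y-linked score as a covariate, 1 without mutant embryo 1, mutant embryo 3 or wildtype embryo 1, and 2 without wildtype embryo 3. As ligands, 2 of 32 tested members fell, and as receptors 1 of 23. A log2 fold change is here the mutant minus the wildtype mean of log2(cRPKM + 1), which understates the change of low genes.

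Changes were small in most members. In 37 of 55 the absolute log2 fold change was under 0.1, with standard errors of 0.0385 to 0.112 (median 0.0628), and in 9 it was 0.2 or more.

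Epha7, a receptor tyrosine kinase for A-class ephrins (ENSMUSG00000028289, chromosome 4, 28813131 to 28967499, GRCm38), showed the largest fall among the tested members. It was at 7.91, 7.45 and 7.96 cRPKM in mutant embryos 1 to 3 and at 11.79, 10.58 and 10.76 in wildtype embryos 1 to 3. The mutant values lay close together and well under the lowest wildtype value. Means were 7.77 ± 0.281 cRPKM in mutant and 11.0 ± 0.653 in wildtype kidneys (SD, n = 3 each), a ratio of 0.704 (log2 fold change -0.46, SE 0.0524, limma adjusted p = 0.00996). The call ended without mutant embryo 2 (adjusted p = 0.0526), with no filter on low values (0.0508) and with the Y-linked score as a covariate (0.281, log2 fold change -0.43). Without wildtype embryo 3 the adjusted p stood at 0.0162.

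Sema3a, a secreted semaphorin that signals through Nrp1 and A-class plexins and collapses axonal growth cones, also fell (ENSMUSG00000028883, chromosome 5, 13125414 to 13602565, GRCm38). Its values were 10.48, 9.85 and 10.74 cRPKM in mutant embryos 1 to 3, against 14.06, 13.03 and 12.99 in wildtype embryos 1 to 3. The groups were separated by more than the spread within either of them. Means were 10.4 ± 0.458 cRPKM in mutant and 13.4 ± 0.607 in wildtype kidneys (SD, n = 3 each), a ratio of 0.775 (log2 fold change -0.34, SE 0.0498, limma adjusted p = 0.0226). The call ended without mutant embryo 1, 2 or 3 (adjusted p = 0.0729, 0.0747 and 0.0694), without wildtype embryo 1 (0.0585), with no filter (0.0749) and with the Y-linked covariate (0.476, log2 fold change -0.32). It remained without wildtype embryo 2 (0.0479) or wildtype embryo 3 (0.0351).

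Sema3c, a secreted semaphorin that uses both neuropilins and is known for its part in outflow tract development, was the third to fall (ENSMUSG00000028780, chromosome 5, 17574281 to 17730268, GRCm38). It was at 25.94, 23.17 and 23.17 cRPKM in mutant embryos 1 to 3 and at 31.71, 28.45 and 29.80 in wildtype embryos 1 to 3, again with no overlap. Means were 24.1 ± 1.60 cRPKM in mutant and 30.0 ± 1.64 in wildtype kidneys (SD, n = 3 each), a ratio of 0.803 (log2 fold change -0.30, SE 0.0583, limma adjusted p = 0.0499). This value lay at the threshold, and the call ended without any 1 of the 6 libraries (adjusted p 0.0631 to 0.175). It also ended with quantile normalisation (0.0540), with library weights (0.0707), with no filter (0.114) and with the Y-linked covariate (0.700, log2 fold change -0.20).

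The stretches of DNA before the starts of Epha7 and Sema3a are shown because these 2 of the called members held their calls under more of the alternatives than Sema3c. Each is the 250 bases before the gene's start in RefSeq (build GRCm38.p6, plus strand, 5′ to 3′), chr4:28812881-28813130 for Epha7 and chr5:13396534-13396783 for Sema3a. The RefSeq start of Sema3a lies inside the longer gene span given above from GENCODE. Capitals mark matches, on either strand, to the GC box GGGCGG, the TATA box TATAAA or the TEAD motif GGAATG, which do not overlap one another here.
Epha7: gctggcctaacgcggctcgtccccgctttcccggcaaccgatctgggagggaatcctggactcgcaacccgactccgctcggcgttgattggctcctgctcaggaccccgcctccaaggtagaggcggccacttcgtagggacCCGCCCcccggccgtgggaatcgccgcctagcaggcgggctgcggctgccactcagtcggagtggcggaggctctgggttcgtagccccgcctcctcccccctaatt
Sema3a: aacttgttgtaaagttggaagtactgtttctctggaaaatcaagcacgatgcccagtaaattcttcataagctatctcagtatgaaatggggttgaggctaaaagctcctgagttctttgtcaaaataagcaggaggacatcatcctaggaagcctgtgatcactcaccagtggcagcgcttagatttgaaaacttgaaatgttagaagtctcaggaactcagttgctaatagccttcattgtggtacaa
The windows are unlike each other. That of Epha7 is rich in G and C (69.2%) with 25 CpG steps and 1 GC box, while that of Sema3a has 40.8% G and C, 2 CpG steps and no match to any of the 3 motifs. Over the first-listed window of all 27025 genes in the table, the medians were 52.0% and 6 CpG steps, and 32.9% held a GC box, 13.0% a TATA box and 12.6% a TEAD motif. Of the 58 guidance genes with a window, 43 held a GC box, 2 a TATA box and 7 a TEAD motif. A match is only a run of letters, and the absence of one says nothing of the factor.

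Class 3 semaphorins beside these did not move as a block. Sema3f, a ligand of Nrp2, was the most abundant of them, at 39.56, 40.01 and 43.75 cRPKM in mutant embryos 1 to 3 and at 33.65, 36.41 and 38.31 in wildtype embryos 1 to 3. Each mutant value lay above each wildtype value, but the difference did not pass (log2 fold change 0.18, SE 0.0588, limma adjusted p = 0.227). Sema3d, a secreted relative expressed at a level near that of Slit2, averaged 20.3 ± 0.654 cRPKM in mutant and 19.6 ± 1.64 in wildtype kidneys (SD, n = 3 each). Sema3b and Sema3g had overlapping values as well. Sema3e, the ligand of Plxnd1, was too low to test, at 0.36, 0.32 and 0.30 cRPKM in mutant embryos 1 to 3 against 0.50, 0.46 and 0.58 in wildtype embryos 1 to 3. The 7 members of the class summed to 104 ± 1.90 cRPKM in mutant and 108 ± 2.01 in wildtype kidneys (SD, n = 3 each).

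Among the other semaphorins, Sema5a came nearest to a call. It encodes a membrane protein with thrombospondin repeats, and it was at 11.38, 9.21 and 10.55 cRPKM in mutant embryos 1 to 3 and at 14.02, 12.60 and 15.61 in wildtype embryos 1 to 3. The groups did not overlap, with a ratio of means of 0.737 (log2 fold change -0.41, SE 0.0886, limma adjusted p = 0.0745). Its close relative Sema5b was lower in level and overlapped (3.68 ± 0.265 cRPKM in mutant and 3.73 ± 0.232 in wildtype kidneys, SD, n = 3 each). Of the 6 class 4 genes none was called, and each had overlapping values. Sema4c, which binds Plxnb2, was the most abundant of them at 28.8 ± 0.546 cRPKM in mutant and 27.8 ± 1.28 in wildtype kidneys (SD, n = 3 each). Sema4g had the largest change of the class, 0.14 (SE 0.0772, limma adjusted p = 0.497), and Sema4d, the ligand of Plxnb1, was at 0.04 (SE 0.112). In class 6, whose members bind A-class plexins, Sema6a led at 14.4 ± 0.586 cRPKM in mutant and 13.9 ± 0.341 in wildtype kidneys (SD, n = 3 each). Sema6d lay lower without overlap but did not pass (-0.09, SE 0.0486, limma adjusted p = 0.468). Sema7a, a lipid-anchored ligand of Plxnc1, was at 1.90 ± 0.0529 cRPKM in mutant and 2.14 ± 0.336 in wildtype kidneys (SD, n = 3 each).

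**Figure D2:**
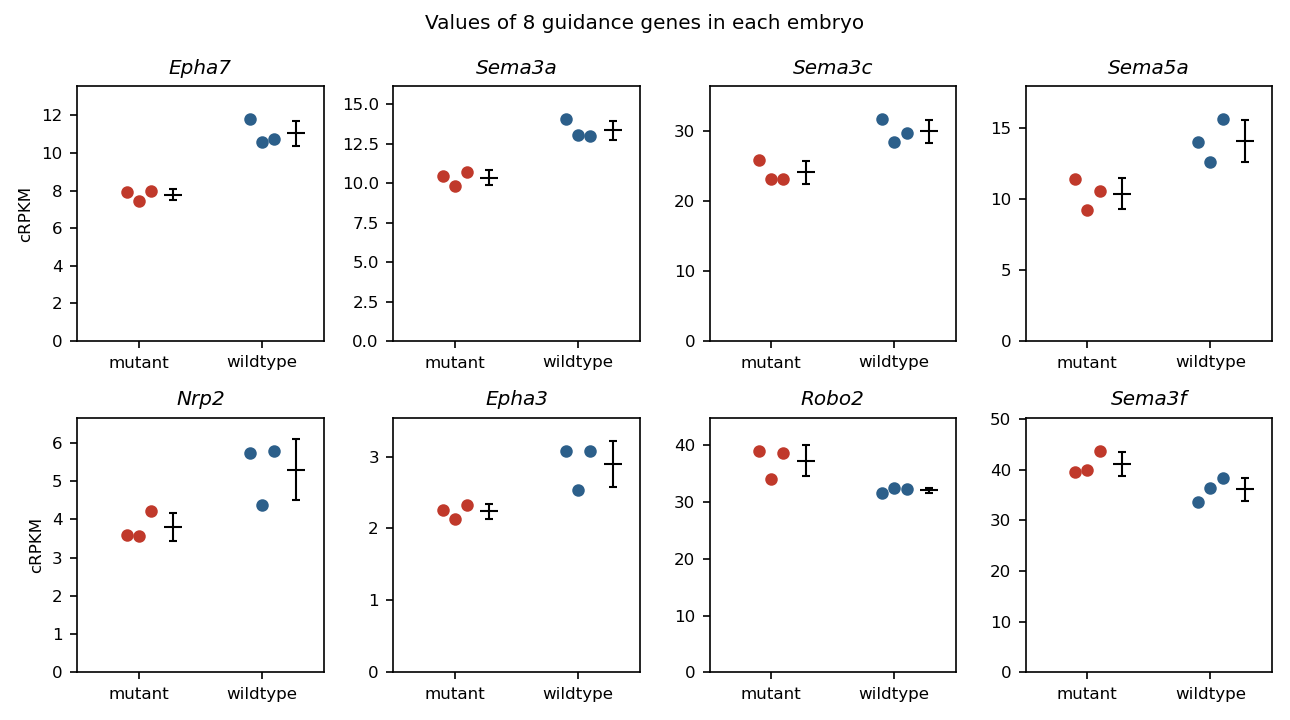
cRPKM of 8 guidance genes in each embryo, mutant left and wildtype right in each panel, with the mean and SD (n = 3) as bars beside the points. Epha7, Sema3a, Sema3c, Sema5a, Nrp2 and Epha3 have every mutant value under every wildtype value, and Robo2 and Sema3f have every mutant value above; Epha7, Sema3a and Sema3c are the called genes.

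The neuropilins, which serve class 3 semaphorins and vascular growth factors, differed in level by close to an order of magnitude. Nrp1 was at 48.28, 47.14 and 47.71 cRPKM in mutant embryos 1 to 3 and at 46.21, 45.37 and 48.13 in wildtype embryos 1 to 3, with a log2 fold change of 0.03 (SE 0.0385). Nrp2 was at 3.60, 3.56 and 4.22 cRPKM in mutant embryos 1 to 3 and at 5.72, 4.37 and 5.79 in wildtype embryos 1 to 3. The Nrp2 groups did not overlap, although wildtype embryo 2 came close to mutant embryo 3, and the gene did not pass (-0.39, SE 0.0984, limma adjusted p = 0.115). Without wildtype embryo 2 it was called (0.0318).

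Plexins, the signalling receptors of semaphorins, gave no call among 7 tested. Plxnd1, a plexin of endothelium, averaged 43.1 ± 3.20 cRPKM in mutant and 43.9 ± 4.67 in wildtype kidneys (SD, n = 3 each). The pair Plxnb1 and Plxna1 averaged 25.0 ± 2.08 and 28.1 ± 3.33 cRPKM in mutant kidneys and 25.6 ± 2.67 and 27.4 ± 2.23 in wildtype kidneys (SD, n = 3 each). Plxna2, a receptor for Sema6a and for neuropilin complexes, was the 1 plexin with groups apart. It was at 3.45, 3.11 and 3.50 cRPKM in mutant embryos 1 to 3 and at 4.13, 3.74 and 4.48 in wildtype embryos 1 to 3 (log2 fold change -0.23, SE 0.0681, limma adjusted p = 0.179). Plxnc1 overlapped by a narrow margin, at 2.90 ± 0.0379 cRPKM in mutant and 3.33 ± 0.363 in wildtype kidneys (SD, n = 3 each).

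Robo2 had the highest fold change of the tested members, though it was not called. It was at 38.97, 34.07 and 38.57 cRPKM in mutant embryos 1 to 3 and at 31.50, 32.41 and 32.17 in wildtype embryos 1 to 3. Each mutant value lay above the tight wildtype range, with mutant embryo 2 the closest to it (ratio of means 1.16, log2 fold change 0.21, SE 0.0546, limma adjusted p = 0.128). Robo2 is made in the nephrogenic mesenchyme. The list of 8 nephron progenitor markers summed to 369.2, 402.6 and 426.01 cRPKM in mutant embryos 1 to 3. In wildtype embryos 1 to 3 it summed to 317.78, 348.73 and 307.83 cRPKM. Of the 8 markers 2 were called higher, against 0.552% of all genes tested. The part of nephron progenitors in the Robo2 values was not tested. Robo1 overlapped between the groups (21.2 ± 2.17 cRPKM in mutant and 21.9 ± 2.03 in wildtype kidneys, SD, n = 3 each). Their ligand Slit2 overlapped as well, at 20.87, 18.65 and 20.76 cRPKM in mutant embryos 1 to 3 and 21.57, 20.14 and 23.12 in wildtype embryos 1 to 3. Slit3 was at 10.00, 8.99 and 10.82 cRPKM in mutant embryos 1 to 3 and 13.43, 11.81 and 10.71 in wildtype embryos 1 to 3. Its mutant embryo 3 exceeded its wildtype embryo 3, and it did not pass (-0.25, SE 0.0861, limma adjusted p = 0.268). Slit1 was highest in wildtype embryo 3, at 7.44 cRPKM, above the 5.46 to 6.70 seen elsewhere.

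**Figure D3:**
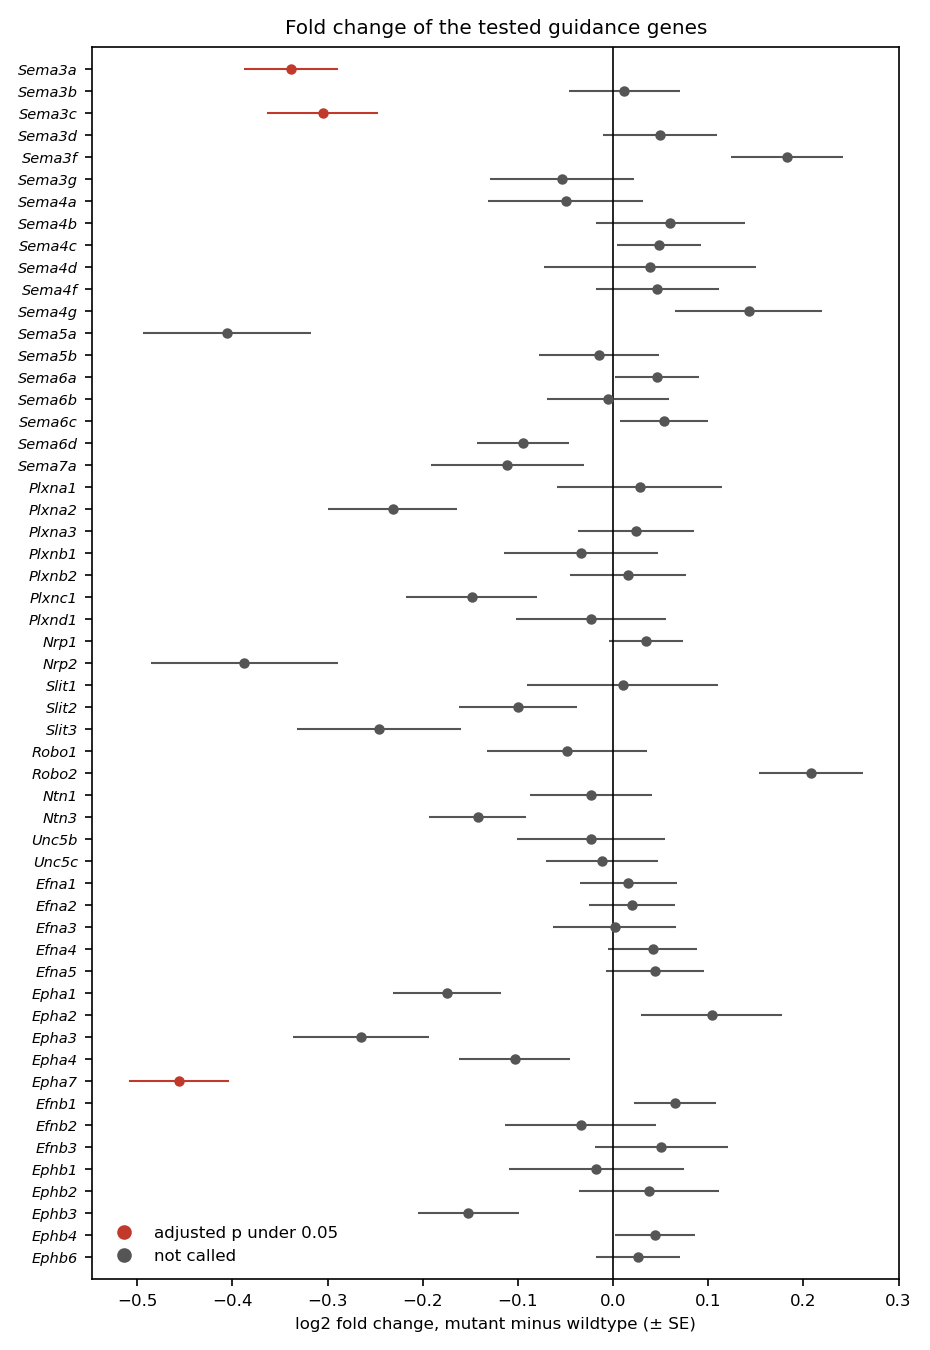
Log2 fold change, mutant minus wildtype on the log2(cRPKM + 1) scale, of the 55 tested guidance genes by family, with bars of 1 standard error. The 3 called genes, Epha7, Sema3a and Sema3c, lie left of 0, and most of the remaining genes lie within 0.1 of 0.

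The netrin system gave no call. Ntn1, the founding netrin and the main one of this kidney, was at 36.10, 38.84 and 41.94 cRPKM in mutant embryos 1 to 3 and at 39.83, 41.84 and 37.10 in wildtype embryos 1 to 3, so the groups overlapped fully (log2 fold change -0.02, SE 0.0639). Its repulsive receptors Unc5c and Unc5b averaged 26.0 ± 1.59 and 14.5 ± 0.501 cRPKM in mutant kidneys and 26.2 ± 1.59 and 14.8 ± 1.86 in wildtype kidneys (SD, n = 3 each). Ntn3 was lower without overlap, at 5.03 ± 0.113 cRPKM in mutant and 5.66 ± 0.315 in wildtype kidneys (SD, n = 3 each, limma adjusted p = 0.278). The basement membrane netrin Ntn4 was too low to test, at 0.58, 0.52 and 0.61 cRPKM in mutant embryos 1 to 3 against 0.67, 0.66 and 0.94 in wildtype embryos 1 to 3. Unc5a was at 0.83, 0.89 and 0.93 cRPKM in mutant embryos 1 to 3 against 1.00, 0.91 and 1.41 in wildtype embryos 1 to 3. Its highest value lay in wildtype embryo 3, as did those of Ntn4 and Plxna4 and of more abundant members such as Plxnd1 and Efnb2.

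The ephrins gave no call. All 8 were tested, and their log2 fold changes ran from -0.03 for Efnb2 to 0.06 for Efnb1. The lipid-anchored A class was led by Efna4 at 27.1 ± 1.54 cRPKM in mutant and 26.3 ± 0.0666 in wildtype kidneys (SD, n = 3 each). Efnb2, the arterial ligand of Ephb4, was at 28.26, 27.88 and 27.79 cRPKM in mutant embryos 1 to 3 and at 25.31, 28.48 and 32.67 in wildtype embryos 1 to 3. Its wildtype values were spread on both sides of the mutant values.

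Among their receptors the values were more spread out. Of the 5 tested A-class genes, 3 lay lower without overlap (Epha7, Epha3 and Epha1), and of the 5 tested B-class genes 1 did (Ephb3), where 11.0% of all genes tested lay so. Counts this small are given as a description. Epha3 was at 2.25, 2.13 and 2.33 cRPKM in mutant embryos 1 to 3 and at 3.08, 2.53 and 3.08 in wildtype embryos 1 to 3, and it did not pass (log2 fold change -0.26, SE 0.0713, limma adjusted p = 0.136). Epha1 averaged 3.67 ± 0.135 cRPKM in mutant and 4.27 ± 0.275 in wildtype kidneys (SD, n = 3 each, limma adjusted p = 0.231). Epha4, the most abundant receptor of the A class, overlapped at 12.92, 11.78 and 13.59 cRPKM in mutant embryos 1 to 3 and 13.68, 13.21 and 14.43 in wildtype embryos 1 to 3. Epha2 had the opposite sign (0.10, SE 0.0741, limma adjusted p = 0.627). The 9 A-class receptors summed to 34.0 ± 1.73 cRPKM in mutant and 39.0 ± 1.60 in wildtype kidneys (SD, n = 3 each). Ephb3 averaged 7.17 ± 0.265 cRPKM in mutant and 8.08 ± 0.484 in wildtype kidneys (SD, n = 3 each, limma adjusted p = 0.267). Ephb2 averaged 11.1 ± 1.13 cRPKM in mutant and 10.8 ± 0.712 in wildtype kidneys (SD, n = 3 each), and Ephb4, a receptor of venous endothelium, had a log2 fold change of 0.04 (SE 0.0423).

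Because related genes shared a library, 6 ratios within each library were taken as well, as a description only, since the pairs were picked after the values were known and Epha7, Sema3a, Sema3c, Nrp2, Robo2 and Sema3f already lay apart between the genotypes. The ratio of Epha7 to Epha4 was 0.612, 0.632 and 0.586 in mutant embryos 1 to 3 and 0.862, 0.801 and 0.746 in wildtype embryos 1 to 3. For Sema3a to Sema3d it averaged 0.510 ± 0.0352 in mutant and 0.682 ± 0.0305 in wildtype kidneys, and for Sema3c to Sema3f 0.588 ± 0.0635 in mutant and 0.834 ± 0.0940 in wildtype kidneys (SD, n = 3 each). Nrp2 to Nrp1 averaged 0.0795 ± 0.00776 in mutant and 0.113 ± 0.0150 in wildtype kidneys, and Robo2 to Robo1 1.76 ± 0.0747 in mutant and 1.47 ± 0.120 in wildtype kidneys (SD, n = 3 each). These 5 ratios did not overlap between the genotypes, and that of Slit3 to Slit2 did.

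**Figure D4:**
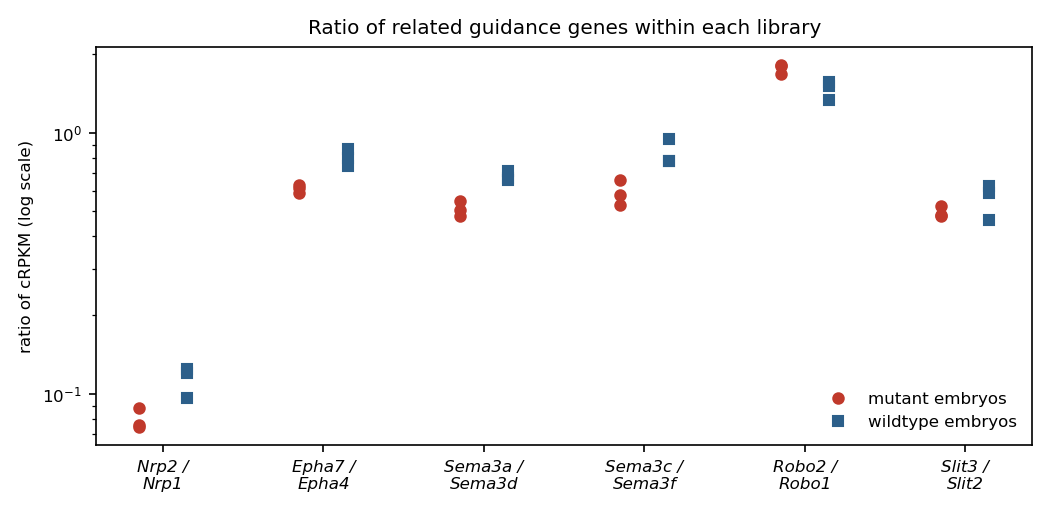
Ratio of cRPKM of related guidance genes within each library on a log axis, with mutant embryos as circles to the left and wildtype embryos as squares to the right. The first 4 ratios are lower and Robo2 to Robo1 is higher in each mutant than in each wildtype embryo, while Slit3 to Slit2 overlaps.

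The 12 members too low to test had values of 0.02 to 1.41 cRPKM. They were Epha5, Epha6, Epha8, Epha10, Ntn4, Ntn5, Plxna4, Plxnb3, Robo3, Sema3e, Unc5a and Unc5d. Of them 2 lay lower without overlap (Sema3e and Ntn4) and 1 higher (Robo3, at 0.06 or less in each library). No direction is read from values this low.

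A list of 84 other genes of guidance signalling, which covers further ligands, co-receptors and the proteins inside the cell that pass the signal on, matched 86 gene identifiers. Of these 72 were tested, 2 fell (2.78%) and 1 rose (1.39%), against 0.877% and 0.552% of all genes tested. In 6 of them (8.33%) each mutant value lay under each wildtype value and in 8 (11.1%) above, against 11.0% and 7.23% of all genes tested. Flrt2, a membrane ligand of Unc5 receptors, fell to 19.10, 16.96 and 18.05 cRPKM in mutant embryos 1 to 3, against 23.69, 21.44 and 23.84 in wildtype embryos 1 to 3 (log2 fold change -0.33, SE 0.0578, limma adjusted p = 0.0352). Chl1, an adhesion molecule of the L1 family, fell to 1.02, 0.84 and 0.91 cRPKM in mutant embryos 1 to 3, against 1.82, 1.72 and 1.47 in wildtype embryos 1 to 3 (-0.47, SE 0.0742, limma adjusted p = 0.0257, or -0.79 with 0.1 added in place of 1). Nell1, a secreted protein related to the Robo3 ligand Nell2, rose to 7.54, 8.03 and 8.22 cRPKM in mutant embryos 1 to 3, against 5.40, 5.87 and 5.70 in wildtype embryos 1 to 3 (0.42, SE 0.0507, limma adjusted p = 0.0117). All 3 had groups that did not overlap. Rgma, a ligand of neogenin, and Dpysl4, a relative of the collapsin response mediator that acts below semaphorins, had higher values without a call (0.23 and 0.26, limma adjusted p = 0.0661 and 0.0819). With single libraries left out, Chl1 was called without wildtype embryo 3 (0.0218) and Flrt2 without wildtype embryo 2 (0.0364), and neither without any of the other 5 (up to 0.111 and 0.123). Nell1 lost its call without mutant embryo 2 or 3 (0.0595 and 0.0571), and with the Y-linked covariate or no filter none of these 3 was called.

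Marker lists of the cell types of the kidney are given beside the 3 called members. The 8 cortical stroma genes summed to 275.63, 299.59 and 282.53 cRPKM in mutant embryos 1 to 3, against 390.08, 335.84 and 295.42 in wildtype embryos 1 to 3. The sums overlapped, mutant embryo 2 lying above wildtype embryo 3, and wildtype embryo 1 was highest, with Postn at 77.85 and Dcn at 36.47 cRPKM against no more than 49.51 and 19.07 in the other 5 libraries. Of the 8 genes 1 was called lower, the receptor gene Pdgfra at 29.8 ± 0.584 cRPKM in mutant and 41.9 ± 2.08 in wildtype kidneys (SD, n = 3 each). Tcf21 and Snai2 lay lower without overlap and were not called, and Postn, Dcn and Lum overlapped. Foxd1, the defining gene of this stroma, and Meis1 overlapped as well, with log2 fold changes of 0.04 (SE 0.0958) and 0.02 (SE 0.0653). The 6 medullary stroma genes summed to between 45.16 and 45.84 cRPKM in mutant and between 53.16 and 69.71 in wildtype libraries, with 1 called lower. Their members Lef1, Acta2 and Tagln overlapped. The 9 early nephron genes summed to between 269.86 and 303.58 cRPKM in mutant and between 292.53 and 360.43 in wildtype libraries, also with 1 called lower. Most of that sum was Ccnd1, at 146.79 to 163.64 cRPKM in mutant and 159.88 to 185.32 in wildtype libraries. Ccnd1, Lhx1, Jag1, Pax8 and Wnt4 overlapped, and Wnt4 had a log2 fold change above 0 (0.05, SE 0.0902). The 9 endothelial genes summed to between 170.1 and 180.11 cRPKM in mutant and between 181.13 and 193.73 in wildtype libraries, with Cldn5 called lower. Tek and Emcn lay lower without overlap and were not called. Pecam1, Cdh5, Kdr, Tie1, Esam and Robo4 overlapped, and the median log2 fold change of the list was -0.03. The 6 podocyte genes, of which 3 were high enough to test, summed to between 22.15 and 25.68 cRPKM in mutant and between 27.16 and 36.29 in wildtype libraries. For the 8 ureteric epithelium genes the sums were 211.25 to 219.46 against 221.38 to 261.63 cRPKM. Among these Gata3, Wnt9b, Emx2 and Calb1 overlapped, and Calb1 had a log2 fold change above 0 (0.12, SE 0.0550). The 6 ureteric tip genes summed higher in mutant libraries, 192.56 to 205.75 against 157.37 to 191.02 cRPKM, though all but Etv4 overlapped. No gene of the podocyte, ureteric epithelium and ureteric tip lists was called. Of all genes tested, 0.877% were called lower. No defining marker of these lists was at 0 throughout. The part of these cell types in the lower Epha7, Sema3a and Sema3c values was not tested.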

How the data were processed

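Total RNA of 6 embryonic kidney pairs was sequenced, 1 library per embryo. The authors deposited 1 table of cRPKM, a corrected RPKM per gene, with no account of the correction. The column headers record trimming, and Bowtie and mm9 are named in the submitters' processing notes. The treatment of shared reads and of strand is not stated. Columns were matched to embryos by the header text in the labels. RPKM are not counts, so log2(cRPKM + 1) was tested with limma 3.58.1 in R 4.3.3 (eBayes with trend, genotype as the single term, 2-sided) for the 12315 genes that averaged 1 cRPKM or more, with Benjamini-Hochberg adjustment over all of them and calls at 0.05. Embryos are separate animals of 1 litter, so p-values measure the spread within it.

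Read totals are unknown. Relative to wildtype embryo 1, the spacing of low values gave depths of 0.906 to 1.04 for the remaining libraries, searching near 1 only. Libraries correlated at 0.991 to 0.996 over 15 pairs, across genes. The test was checked on simulated data with 50 genes changed at each size. Of these, 32 were called at an absolute log2 fold change of 0.3 and 47 at 0.5. A change near 0.3 can thus go uncalled.

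The members and lists were chosen with earlier results of these data known. Named genes were all called members, the 20 members with the smallest unadjusted p, the most abundant of each family, ligands and receptors with known kidney roles, and the called and 5 leading genes of the other guidance list. Further genes were named after their values were seen. The 12 alternatives were another pseudocount (0.1), no filter, quantile normalisation, an embryo-number block, a Y-linked covariate (mean log2 level of Ddx3y, Kdm5d, Eif2s3y and Uty), library weights, and each library left out. Gene positions came from GENCODE M21 (GRCm38), which is not the build of the values, and promoter sequences from RefSeq (GRCm38.p6). The window listed for Sema3c lies within an annotated exon and is not shown.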

Additional observations from a re-analysis of the deposited data

How the results depend on the processing

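Without a filter on low values no member was called, and 22 genes in all were lower and 10 higher, with 0 other guidance genes either way. With the Y-linked covariate no member was called, and 1 gene was lower and 1 higher in all. Under the replicate block, 5 members were lower (Nrp2 and Sema5a joined), with 164 genes lower and 109 higher in all. In that setting 3 other guidance genes were higher. Same-numbered embryos deviated together with correlations of 0.0985, 0.205 and 0.277, and embryos of unlike number with -0.373 to 0.227. Mutant embryos 1 and 2 each matched another number slightly better than their own (0.106 and 0.227). The labels do not say that the numbers pair embryos, and these values cannot settle it. Library weights left 1 other guidance gene lower. Each library left out in turn gave 0 to 3 members lower and 0 higher, 17 to 87 genes lower and 7 to 53 higher in all, and 0 to 1 other guidance genes lower and 0 to 1 higher. No member was called higher under any of the 12 alternatives. Epha7 was called in 9 of the 12, Sema3a in 6 and Sema3c in 2, each with a log2 fold change below 0 throughout. Precision is limited by 3 embryos a group and by unknown read totals.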

Other observations

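Sema3a and Sema3c lie on chromosome 5 (GRCm38) along with Sema3d and Sema3e, in the order Sema3d, Sema3a, Sema3e and Sema3c. The gaps between them are 536 kb from Sema3d to Sema3a, 423 kb from Sema3a to Sema3e and 3318 kb from Sema3e to Sema3c. Within this stretch Sema3a and Sema3c were called lower in mutant kidneys. Sema3d had a log2 fold change of 0.05 (SE 0.0600, limma adjusted p = 0.796). Sema3e was too low to test, and no direction is read from its values. Fat4 lies on chromosome 3, where 6 of the 67 guidance genes also lie, none of them called.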
